A study of Arabidopsis thaliana with 12 samples.

Results

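The mRNA levels of 10 genes of RNA-directed DNA methylation (RdDM) are described here: NRPD1 (AT1G63020) and NRPE1 (AT2G40030), the CLASSY genes CLSY1 (AT3G42670), CLSY2 (AT5G20420), CLSY3 (AT1G05490) and CLSY4 (AT3G24340), SHH1 (AT1G15215), DRD1 (AT2G16390), DMS3 (AT3G49250) and DRM2 (AT5G14620). They were chosen with earlier results of these data known, and were taken by locus identifier. All 10 were found among the 38640 genes of the mRNA-Seq table of Arabidopsis thaliana. The study profiled mRNAs and small RNAs in 3 kinds of tissue with 2 biological replicates each, each replicate pooling tissue of its own set of plants. The groups were unopened floral buds of dcl234 plants, which are homozygous for dcl4-2t, dcl3-1 and dcl2-1 in the Col-0 ecotype, rosette and cauline leaves of wild-type Col-0, and unopened floral buds of wild-type Col-0, named below dcl234 buds, leaves and Col-0 buds. All plants were 4 to 6 weeks old and grew under 16 h of light and 8 h of dark, and the leaves and Col-0 buds came from the same plants. Levels are in TPM, a gene's share of all transcripts in a library, corrected for transcript length, so genes of 1 library can be set side by side.

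RdDM is the plant pathway that places cytosine methylation on DNA, mostly at transposons and repeats, under the guidance of small RNAs. RNA polymerase IV, brought to chromatin by SHH1 and the CLASSY chromatin remodellers, makes short transcripts that RDR2 turns into double-stranded RNA and DCL3 cuts into 24-nt siRNAs. RNA polymerase V, which depends on DRD1 and DMS3, makes a second transcript at the target, where siRNAs held by ARGONAUTE proteins pair with it and the methyltransferase DRM2 is recruited.

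Markers of floral organs followed the labels. The summed level of 5 of them was 552 and 738 TPM in dcl234 buds, 2.57 and 4.23 TPM in leaves, and 271 and 389 TPM in Col-0 buds. The 4 leaf markers summed to 14037 and 15495 TPM in dcl234 buds, 27817 and 20269 TPM in leaves, and 8043 and 8974 TPM in Col-0 buds. Libraries differed in composition: nuclear protein-coding genes held 72.7% and 81.7% of TPM in dcl234 buds, 68.8% and 58.6% in leaves, and 42.4% and 60.1% in Col-0 buds, and 1 non-coding RNA, AT3G06365, held between 2.03% and 18.8%. These shares move the TPM of every gene in a library, so calls are also given after rescaling to the nuclear protein-coding genes. Of the mutated genes, DCL3 was at 0.40 and 0.37 TPM in dcl234 buds, against 3.85 and 4.30 TPM in Col-0 buds. DCL2 (1.04 and 1.60 against 2.07 and 3.26 TPM) and DCL4 (3.12 and 2.87 against 3.20 and 4.51 TPM) did not pass the test. The TPM values keep no read counts and the read totals of the libraries were not used here, so no counting error was computed for low values.

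In leaves all 10 genes were lower in TPM than in Col-0 buds, with no overlap of the libraries, and CLSY3 was listed at 0. A gene entered the test if it averaged 1 TPM or more over the 6 libraries. Differences in log2(TPM + 1) were fitted with limma, and a call needed an adjusted p (Benjamini-Hochberg, over the 19778 genes tested) under 0.05. The filter kept 7 of the 10 genes, and 4 of these fell in leaves: CLSY3, NRPE1, DMS3 and DRD1. Of all genes tested, 24.9% were called lower in leaves, and 43.6% were lower without overlap (37.4% of all genes above 0 in any library). The median difference of the 7 genes was -0.98 on the log2 scale, beside -0.31 for all genes. In dcl234 buds none of the 7 genes was called, where 1.83% of all genes were, and their median difference of 0.45 stood beside 0.50 for all genes. Both comparisons use the same Col-0 bud libraries. In such bulk samples, fewer cells of a type and less RNA per cell cannot be told apart.

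**Figure D1:**
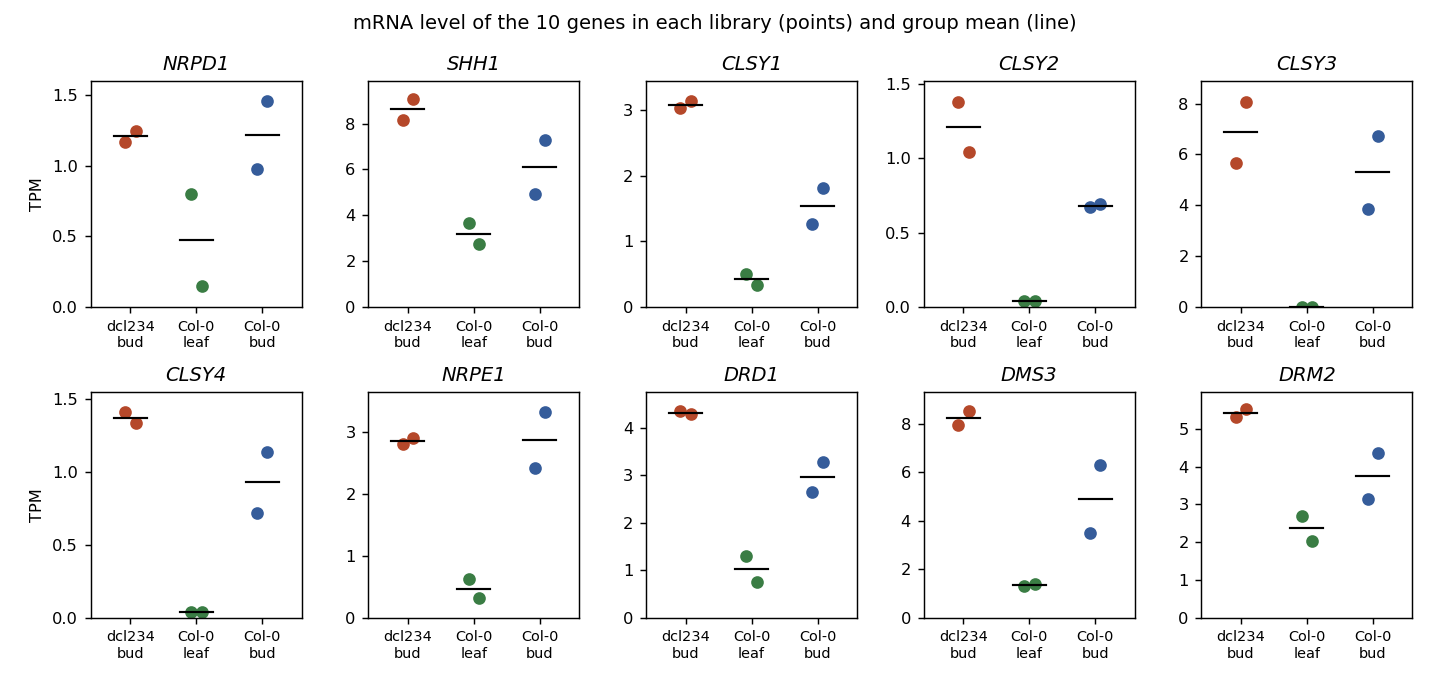
mRNA level (TPM) of the 10 genes in dcl234 buds, leaves and Col-0 buds, with a point for each of 2 libraries and a line at the group mean. The vertical scales differ between genes. In each panel both leaf points lie under both Col-0 bud points, and CLSY3 is at 0 in leaves.

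Of the 7 tested genes, CLSY3 differed most between leaves and Col-0 buds. It is a CLASSY gene known for directing siRNA production in reproductive tissues, and lies at chr1:1618504-1623489 on the minus strand with 4 exons (RefSeq annotation of TAIR10.1, as for all positions here). CLSY3 had 5.68 and 8.06 TPM in dcl234 buds, 0 and 0 TPM in leaves, and 3.86 and 6.72 TPM in Col-0 buds. The 4 bud libraries overlapped between genotypes, and both leaf libraries stood apart from them. The fitted difference between leaves and Col-0 buds was -2.61 on the log2(TPM + 1) scale (SE 0.34, limma adjusted p = 3.9e-05). Because the leaf libraries are at 0, this size depends on the pseudocount and no fold is given. Among the 2291 genes that lay between 3 and 9 TPM in all 4 bud libraries, 58 (2.53%) were, like CLSY3, listed at 0 in both leaf libraries.

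CLSY1 was the main CLASSY gene left in leaves. CLSY1, which works with SHH1 at many Pol IV sites, lies at chr3:14755798-14760629 on the minus strand and has 5 exons. It had 3.03 and 3.14 TPM in dcl234 buds, 0.51 and 0.33 TPM in leaves, and 1.26 and 1.81 TPM in Col-0 buds. The 3 groups did not overlap, but neither difference from Col-0 buds passed the limma test (leaves -0.83, SE 0.34, adjusted p = 0.0673, dcl234 buds 0.70, SE 0.34, adjusted p = 0.231). The difference of leaves passed under 4 of 14 alternatives: without Col-0 bud replicate 1 (-0.99, limma adjusted p = 0.0341), with a pseudocount of 0.1 (adjusted p = 0.0317), with only the 4 libraries compared (0.0448) and after rescaling to coding genes (0.00287). The adjusted p was 0.172 without leaf replicate 2 and 0.104 without Col-0 bud replicate 2.

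CLSY2, the close relative of CLSY1, and CLSY4, that of CLSY3, were the scarcest CLASSY genes of the buds. CLSY2 (chr5:6898790-6904242, minus strand, 6 exons) had 1.38 and 1.04 TPM in dcl234 buds, 0.04 and 0.04 TPM in leaves, and 0.67 and 0.69 TPM in Col-0 buds. CLSY4 (chr3:8831935-8835829, minus strand, 3 exons) had 1.41 and 1.34 TPM in dcl234 buds, 0.04 and 0.04 TPM in leaves, and 0.72 and 1.14 TPM in Col-0 buds. Both genes were near the bottom of the scale in leaves. In TPM each was higher in both dcl234 bud libraries than in both Col-0 bud libraries, as were 51.4% of the genes above 0 in any library. After rescaling to nuclear protein-coding genes, both overlapped between the genotypes. With means of 0.643 and 0.782 TPM they fell under the filter. In the limma fit without a filter, which called 14.6% of genes lower in leaves, CLSY2 (-0.69, SE 0.14, adjusted p = 0.0249) and CLSY4 (-0.88, SE 0.17, adjusted p = 0.0196) were called lower in leaves and neither was called in dcl234 buds (adjusted p = 0.291 and 0.356), where that fit called 0.297% of genes.

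The make-up of the CLASSY mRNAs differed by organ. CLSY3 was 49.4% and 59.4% of the summed CLSY TPM in dcl234 buds, 0% and 0% in leaves, and 59.3% and 64.9% in Col-0 buds. CLSY1 was 26.3% and 23.1% in dcl234 buds, 86.4% and 80.5% in leaves, and 19.4% and 17.5% in Col-0 buds. The sum itself was 11.5 and 13.6 TPM in dcl234 buds, 0.59 and 0.41 TPM in leaves, and 6.51 and 10.4 TPM in Col-0 buds. CLSY1 took a larger share in both dcl234 bud libraries than in both Col-0 bud libraries, while the shares of CLSY3 overlapped between them. The ratio of CLSY3 to CLSY1 was 1.87 and 2.57 in dcl234 buds, against 3.06 and 3.71 in Col-0 buds. In leaves the shares rest on low values. With a pseudocount of 0.1 the mean CLSY3 share was 11.2% in leaves, against 60.3% in Col-0 buds and 53.5% in dcl234 buds. The shares and ratios are not altered by the scaling of a library. They are given without a test, since 2 against 2 libraries cannot go below p = 0.33 in an exact permutation test.

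**Figure D2:**
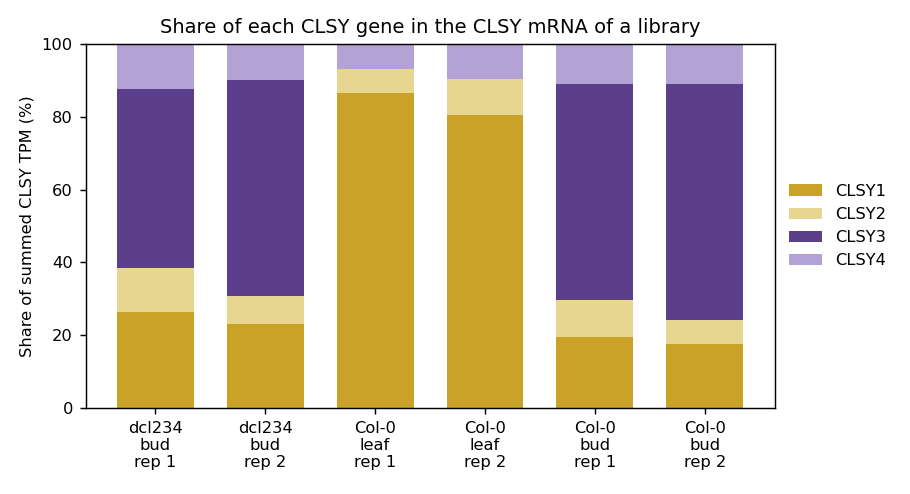
Share of each CLASSY gene in the summed CLSY TPM of a library (%), stacked for each of the 6 libraries. CLSY3 holds 49.4% to 64.9% in the 4 bud libraries and nothing in leaves, where CLSY1 holds 86.4% and 80.5%.

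The 250 bases before the annotated start of CLSY3 are shown because it is the gene listed at 0 in leaves. The window was read 5′ to 3′ on the gene's strand, the minus strand, from TAIR10.1 at chr1:1623490-1623739. Capitals would mark the motifs searched, and this window held none of them.
CLSY3: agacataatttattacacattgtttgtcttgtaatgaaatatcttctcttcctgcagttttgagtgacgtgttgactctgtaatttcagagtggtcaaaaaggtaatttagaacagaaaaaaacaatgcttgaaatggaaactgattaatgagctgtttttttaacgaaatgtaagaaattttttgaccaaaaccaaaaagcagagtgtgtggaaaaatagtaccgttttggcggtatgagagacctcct
The motifs were searched on both strands in the windows of 9 of the 10 genes and of 27443 nuclear protein-coding genes. The TATA box TATAAA was in 3 of the 9 windows and in 47.3% of all. Site II (TGGGCC, 13.7% of all) was in the windows of SHH1 and DMS3, and the CArG box (2.52%) in that of SHH1, where it overlaps the site II match by 2 bases. The telo-box AAACCCTA (4.49%) and the E2F sites TTTCCCGC and TTTGGCGC (0.958%) were in none of the 9. Only these exact letters were searched, so other forms of these sites are not excluded.

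SHH1 had the highest mean of the 10 genes in every group. SHH1, a reader of histone H3 methylation that binds Pol IV, lies at chr1:5238044-5240051 on the plus strand with 8 exons. It had 8.17 and 9.07 TPM in dcl234 buds, 3.66 and 2.75 TPM in leaves, and 4.91 and 7.27 TPM in Col-0 buds. The leaf libraries were the lowest, but the difference from Col-0 buds did not pass the limma test (-0.74, SE 0.31, adjusted p = 0.0790). It passed without Col-0 bud replicate 1 (-0.98, adjusted p = 0.0418) and after rescaling to coding genes (0.00158), and in no other of 15 alternatives. Per CLSY1 transcript, SHH1 stood at 2.70 and 2.89 in dcl234 buds, 7.18 and 8.33 in leaves, and 3.90 and 4.02 in Col-0 buds. The leaf ratios divide by CLSY1 at 0.51 and 0.33 TPM, and neither gene was called in either comparison. The transcripts differ in length (847 bases for SHH1, 3885 for CLSY1), and its part in the ratios was not tested.

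NRPD1, the largest subunit of Pol IV, was low everywhere. The gene lies at chr1:23354685-23362589 on the minus strand with 20 exons. It had 1.17 and 1.25 TPM in dcl234 buds, 0.80 and 0.15 TPM in leaves, and 0.98 and 1.46 TPM in Col-0 buds. The leaf replicates differed more from each other than the bud replicates did. With a mean of 0.968 TPM it fell under the filter, and without a filter its leaf difference was not called (-0.62, SE 0.27, limma adjusted p = 0.167).

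NRPE1, the largest subunit of Pol V, fell in leaves. It lies at chr2:16714460-16723718 on the plus strand with 18 exons. NRPE1 had 2.80 and 2.90 TPM in dcl234 buds, 0.62 and 0.32 TPM in leaves, and 2.41 and 3.32 TPM in Col-0 buds. The mean in leaves was 6.10-fold lower than in Col-0 buds (0.47 ± 0.21 against 2.87 ± 0.64 TPM, SD, n = 2 each), a difference of -1.39 on the log2(TPM + 1) scale (SE 0.33, limma adjusted p = 0.00464). In buds the 2 largest subunits kept nearly the same ratio in both genotypes. NRPD1 stood at 0.418 and 0.431 of NRPE1 in dcl234 buds and at 0.407 and 0.440 in Col-0 buds, while the leaf libraries, at 1.29 and 0.469, spread too widely to place.

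NRPE1 can be set against NRPB1, the largest subunit of RNA polymerase II, which transcribes most genes. NRPE1 was 16.2% and 18.3% of NRPB1 in dcl234 buds, 6.94% and 3.70% in leaves, and 16.1% and 18.6% in Col-0 buds. NRPB1 had 8.93 and 8.66 TPM in leaves, against 15.0 and 17.8 TPM in Col-0 buds (-0.83, SE 0.31, limma adjusted p = 0.0510), and was called lower in leaves without a filter (adjusted p = 0.0466) and after rescaling to coding genes (-1.17, adjusted p = 0.00208). The NRPE1 share of both leaf libraries was under that of all 4 bud libraries. NRPB2, the other Pol II subunit listed for comparison, overlapped, at 7.33 and 4.83 TPM in leaves against 6.96 and 10.3 TPM in Col-0 buds. NRPB2 was not called lower in leaves (-0.45, SE 0.33, limma adjusted p = 0.311), nor without a filter (adjusted p = 0.360). It was called after rescaling to coding genes (-0.78, adjusted p = 0.00851). NRPD2, the second subunit that Pol IV and Pol V share, was higher than either largest subunit, at 10.8 and 11.6 TPM in dcl234 buds, 3.65 and 1.87 TPM in leaves, and 5.42 and 9.91 TPM in Col-0 buds.

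DMS3 and DRD1 form, with RDM1, the complex that Pol V needs to transcribe its targets. RDM1 had 11.64 and 14.95 TPM in dcl234 buds, 4.29 and 4.55 TPM in leaves, and 6.42 and 10.02 TPM in Col-0 buds. It was not called lower in leaves (-0.74, SE 0.32, limma adjusted p = 0.0874), but was after rescaling to coding genes (adjusted p = 0.00251). DMS3, a protein related to the hinge of SMC proteins, had 7.95 and 8.51 TPM in dcl234 buds, 1.30 and 1.39 TPM in leaves, and 3.48 and 6.31 TPM in Col-0 buds. It fell in leaves (-1.29, SE 0.32, limma adjusted p = 0.00672), and its 2 dcl234 bud libraries lay above both Col-0 bud libraries without passing the test (0.69, SE 0.32, adjusted p = 0.226). The DMS3 model (chr3:18255960-18260998, minus strand, 7 exons) overlaps AT3G49240 on the plus strand, and 54.0% of its 50-base stretches also occur in annotated transcripts of other genes. The library protocol does not mark strand, so reads from these stretches cannot be told apart. AT3G49240 itself had 3.02 and 2.58 TPM in dcl234 buds, 1.08 and 3.02 TPM in leaves, and 3.38 and 4.80 TPM in Col-0 buds.

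DRD1, a chromatin remodeller related to the CLASSY proteins, lies at chr2:7097280-7101351 on the plus strand with 6 exons. DRD1 had 4.35 and 4.28 TPM in dcl234 buds, 1.29 and 0.76 TPM in leaves, and 2.65 and 3.27 TPM in Col-0 buds. The 3 groups did not overlap, and DRD1 fell in leaves (-0.98, SE 0.32, limma adjusted p = 0.0271). This call was the least secure of the 4: it was lost in 9 of 14 alternatives, among them the fits without leaf replicate 2 (-0.79, adjusted p = 0.167), without Col-0 bud replicate 2 (-0.86, adjusted p = 0.0810) and without either dcl234 bud library (adjusted p = 0.0584 and 0.0595).

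DRM2, the methyltransferase at the end of the pathway, differed least between leaves and Col-0 buds. The gene lies at chr5:4715105-4718704 on the minus strand with 10 exons. It had 5.30 and 5.52 TPM in dcl234 buds, 2.70 and 2.03 TPM in leaves, and 3.13 and 4.36 TPM in Col-0 buds. Neither difference passed the limma test (leaves -0.49, SE 0.31, adjusted p = 0.234, dcl234 buds 0.45, SE 0.31, adjusted p = 0.320). Set against NRPE1, the subunit of the polymerase whose transcripts recruit it, DRM2 stood at 1.89 and 1.90 in dcl234 buds, 4.35 and 6.34 in leaves, and 1.30 and 1.31 in Col-0 buds. This ratio was highest in leaves and did not overlap between the groups. How often other pairs of genes separate the groups was not computed. The leaf values divide by NRPE1 at 0.62 and 0.32 TPM. The transcripts differ in length (2331 bases for DRM2, 6517 for NRPE1). Over all genes rescaled to coding genes, differences between the genotypes ran with length, and its part in this ratio was not tested.

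The order of the levels differed between the groups. In dcl234 buds SHH1 (mean 8.62 TPM), DMS3 (8.23 TPM) and CLSY3 (6.87 TPM) led, with neighbours whose replicates overlapped. In leaves SHH1 (3.20 TPM), DRM2 (2.37 TPM) and DMS3 (1.34 TPM) led without overlap, and the 3 CLASSY genes other than CLSY1 closed the list. In Col-0 buds the first 6 genes, SHH1, CLSY3, DMS3, DRM2, DRD1 and NRPE1, overlapped their neighbours. CLSY2 (0.68 TPM) was the lowest there, under CLSY4 without overlap.

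In leaves all 7 fitted differences were below 0, although CLSY1 and DRM2 turned positive after quantile normalization (0.074 and 0.046) and DRM2 also on the ERCC scale (0.018). The 3 genes not called (CLSY1, SHH1 and DRM2) were fitted between -0.83 and -0.49. At an unadjusted p under 0.05 the leaf comparison held 6 of the 7 genes, and 9128 of the 19778 tested.

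**Figure D3:**
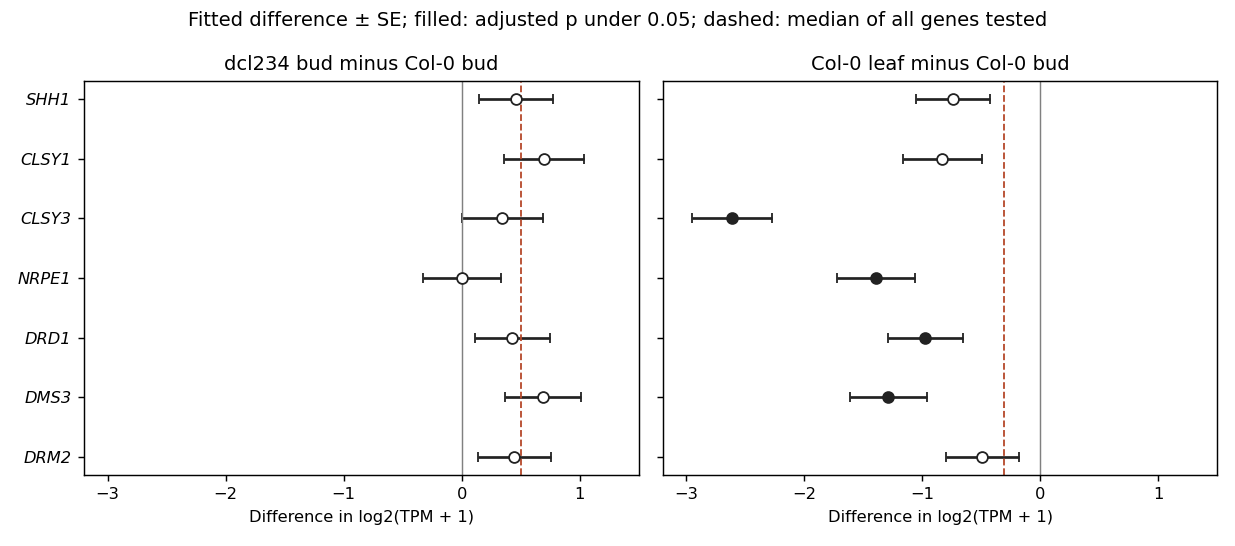
Fitted difference in log2(TPM + 1) with its standard error for the 7 genes tested, dcl234 buds minus Col-0 buds and leaves minus Col-0 buds, with filled points for an adjusted p under 0.05 and a dashed line at the median of all genes tested (0.50 and -0.31). All 7 genes lie left of the dashed line in leaves, and 4 are filled. In dcl234 buds none is filled, and NRPE1 lies at 0.00.

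The calls in leaves depend on the scale. Rescaled to nuclear protein-coding genes, all 10 genes had a mean of at least 1 and all 10 were called lower in leaves, where 50.7% of all genes were called lower, with adjusted p between 4.8e-05 for CLSY3 and 0.0279 for NRPD1 (limma). The rescaled differences were -3.47 for CLSY3, -1.95 for NRPE1, -1.72 for DMS3 and -0.83 for DRM2. Scaled to the total of the ERCC spike-ins, which are synthetic RNAs added to the total RNA, none of the 7 was called in leaves. On that scale 3.78% of all genes were called lower in leaves. The spike-in total itself was 1507 and 655 TPM in dcl234 buds, 3629 and 1792 TPM in leaves, and 4748 and 3585 TPM in Col-0 buds.

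Most markers of other cell types and of division were lower in leaves as well, BEL1 being an exception. Tapetum markers (4 genes) summed to 103 and 122 TPM in dcl234 buds, 0.08 and 0.09 TPM in leaves, and 47.8 and 96.5 TPM in Col-0 buds, with 3 of the 4 at 0 in each leaf library. Meiocyte markers (3 genes) summed to 7.79 and 8.18 TPM in dcl234 buds, 0.57 and 0.12 TPM in leaves, and 3.25 and 4.73 TPM in Col-0 buds. Between the genotypes DMC1 alone was higher in dcl234 buds (6.34 and 6.90 against 1.94 and 2.74 TPM), while ASY1 was lower (0.14 and 0.23 against 0.46 and 0.30 TPM) and SDS overlapped. Ovule markers (3 genes) summed to 63.6 and 79.0 TPM in dcl234 buds, 14.6 and 9.99 TPM in leaves, and 37.4 and 60.6 TPM in Col-0 buds, with INO and STK at 0 in leaves. The leaf sum is BEL1 alone, which was at 14.6 and 9.99 TPM in leaves, against 5.42 and 7.25 TPM in Col-0 buds. The division markers CYCB1;1 and PCNA1 summed to 31.6 and 28.8 TPM in dcl234 buds, 2.07 and 3.64 TPM in leaves, and 16.0 and 29.7 TPM in Col-0 buds. Their part in the lower levels of the 10 genes in leaves was not tested.

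In dcl234 buds no gene of the 10 passed the test. CLSY1, CLSY2, CLSY4, SHH1, DRM2, DMS3 and DRD1 were higher in both dcl234 bud libraries than in both Col-0 bud libraries, as were 51.4% of the genes above 0 in any library and 67% of those in the test, while NRPD1, NRPE1 and CLSY3 overlapped. The fitted differences were 0.70 for CLSY1, 0.69 for DMS3 and between 0.34 and 0.46 for SHH1, DRM2, DRD1 and CLSY3, beside the 0.50 of the median gene, and those of SHH1, DRM2, DRD1 and CLSY3 turned negative once genes were centred on that median (between -0.14 and -0.025). NRPE1, at 0.00 (SE 0.33, limma adjusted p = 0.993), lay 0.50 under it. None of the 7 had an unadjusted p under 0.05, against 4412 of the 19778 genes tested. With the ERCC scale all 7 were called higher, as were 88% of all genes.

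On the scale of nuclear protein-coding genes the 2 polymerase subunits were the lowest of the 10 in dcl234 buds relative to Col-0 buds. NRPE1 stood at 3.85 and 3.55 rescaled TPM in dcl234 buds, against 5.68 and 5.53 in Col-0 buds. NRPD1 stood at 1.61 and 1.53 rescaled TPM in dcl234 buds, against 2.31 and 2.43 in Col-0 buds. CLSY1 went the other way, at 4.17 and 3.84 rescaled TPM in dcl234 buds, against 2.97 and 3.01 in Col-0 buds. The libraries of the 2 genotypes did not overlap for these 3 genes and for SHH1, which was lower in dcl234 buds. These are 4 of the 10, beside 50% of all genes on this scale. None was called, where 1.39% of all genes were (limma adjusted p = 0.502 for NRPE1, 0.774 for NRPD1 and 0.699 for CLSY1).

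Over all genes these differences ran with transcript length. Of the 10 genes, 6 lay outside the quartiles of their length class. By definition, quartiles leave as many genes of a class outside as inside. Over all genes on this scale, the median difference between dcl234 buds and Col-0 buds was 0.19 for transcripts up to 1000 bases, 0.01 up to 2000, -0.11 up to 3000, -0.17 up to 4000, -0.21 up to 5000 and -0.27 above that. NRPE1 (6517 bases, -0.49) lay under the lower quartile of the longest class and NRPD1 (5115 bases, -0.39) within its quartiles. CLSY1 (3885 bases, 0.33), CLSY4 (3656 bases, -0.0048), DMS3 (4111 bases, 0.18) and CLSY2 (4214 bases, 0.12) lay above the upper quartile of their length classes, and SHH1 (847 bases, -0.08) just under the lower quartile of its own. The DMS3 model overlaps AT3G49240 by 2243 bases and has 1263 coding bases, so its length class rests on that model. The part of length in the values of the 10 genes was not tested.

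**Figure D4:**
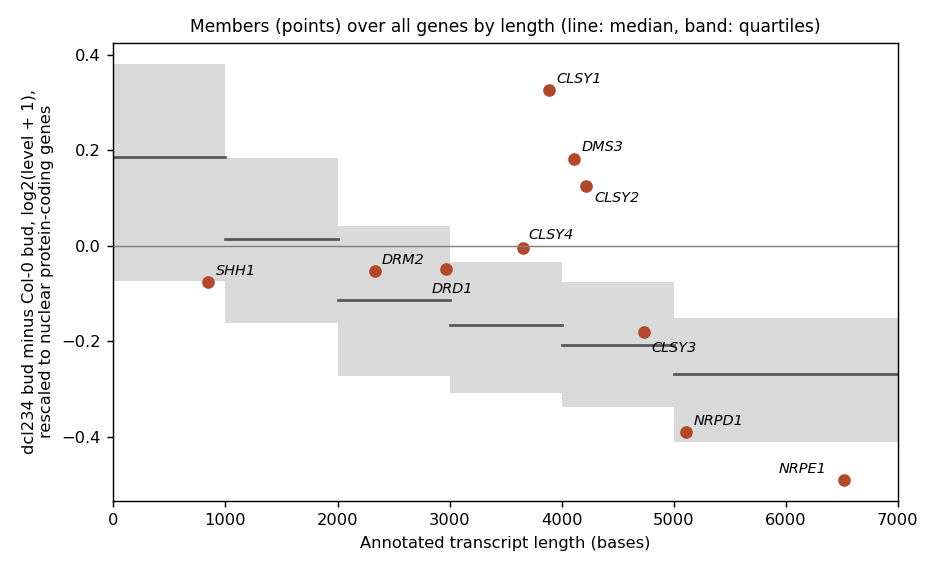
Difference between dcl234 buds and Col-0 buds on the log2 scale after rescaling to nuclear protein-coding genes, against annotated transcript length in bases, for the 10 genes (points) and for all genes in classes of length (line, median, and band, quartiles, with the last class running from 5000 bases upward). NRPE1, at -0.49, is under the quartile band, and CLSY1, at 0.33, is above it.

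Other genes of the pathway fell in leaves as well. Of 26 listed genes 24 passed the filter, and 13 of these were called lower in leaves (24.9% of all genes), none higher and 11 not at all, with a median difference of -0.95 beside -0.31 for all genes. After rescaling to coding genes 22 of the 24 were called lower in leaves, the same 13 among them, where 50.7% of all genes were. Without a filter 8 of the 26 were called lower, where 14.6% of all genes were: 7 of the 13, and AGO6. NRPD2, NRPD7, NRPE7, NRPB3, KTF1 and FDM1 lost the call there (adjusted p between 0.0506 and 0.121). In dcl234 buds 1 was called, the mutated DCL3 (-1.87, limma adjusted p = 0.0140, and 0.0739 without a filter), and 23 were not, with a median of 0.58. Of the shared or alternative polymerase subunits, NRPD2 (-1.20), NRPD4 (-1.84), NRPD7 (-0.91), NRPE7 (-1.003) and NRPB3 (-0.98) fell in leaves. The others, NRPE5 (-0.70), NRPE9B (-0.69) and NRPB8B (-0.72), were not called in TPM (limma adjusted p between 0.107 and 0.112). They were called lower after rescaling to coding genes (adjusted p between 0.00207 and 0.00339). Among the genes of siRNA production, DCL3 (-1.69) and HEN1 (-1.16), which methylates the ends of small RNAs, fell, and RDR2, at 1.75 and 1.90 TPM in dcl234 buds, 0.49 and 0.61 TPM in leaves, and 0.74 and 2.25 TPM in Col-0 buds, was not called in TPM but was on the coding scale (adjusted p = 0.0368).

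Of the 24 genes, AGO9 held the largest difference in leaves. AGO9, an ARGONAUTE known from ovules, had 31.1 and 33.7 TPM in dcl234 buds, 0.15 and 0 TPM in leaves, and 28.7 and 40.4 TPM in Col-0 buds (leaves -5.03, limma adjusted p = 6.7e-08). AGO4, the main ARGONAUTE of RdDM, had 24.18 and 24.98 TPM in dcl234 buds, 4.85 and 2.89 TPM in leaves, and 13.6 and 22.1 TPM in Col-0 buds (leaves -1.94, limma adjusted p = 0.000596). Both were low in each leaf library, as was AGO6, at 0.83 and 0.71 TPM in dcl234 buds, 0.10 and 0.16 TPM in leaves, and 0.54 and 0.86 TPM in Col-0 buds. KTF1 (-1.03), IDN2 (-1.74), FDM1 (-0.99) and FDM2 (-2.01), which act on the Pol V transcript, also fell in leaves. KTF1 and FDM1 lost the call without a filter (limma adjusted p = 0.0506 and 0.0879). RDM1 (-0.74), DMS4 (-0.67) and MORC6 (-0.83), listed in the same part of the pathway, were not called in TPM (adjusted p between 0.0727 and 0.137). They were called lower after rescaling to coding genes (adjusted p between 0.00251 and 0.00615). SUVH9, which binds methylated DNA ahead of Pol V, had 5.48 and 6.45 TPM in dcl234 buds, 9.40 and 5.74 TPM in leaves, and 4.72 and 6.31 TPM in Col-0 buds. SUVH2 and SUVH9 were the 2 of the 24 fitted above 0 in leaves (0.20 and 0.37, limma adjusted p = 0.698 and 0.394), and SUVH2 turned to -0.024 on the coding scale.

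**Figure D5:**
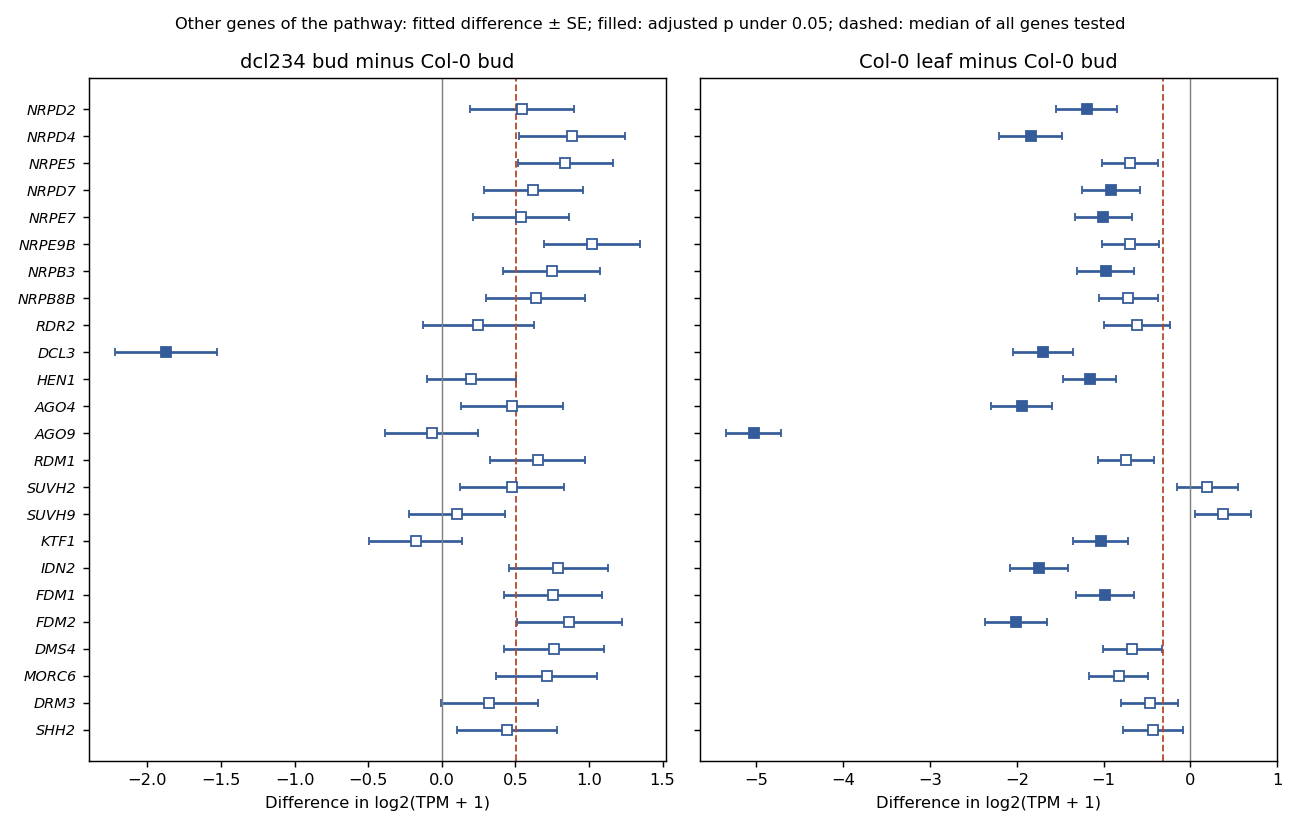
Fitted difference in log2(TPM + 1) with its standard error for the 24 other pathway genes tested, dcl234 buds minus Col-0 buds and leaves minus Col-0 buds, with filled squares for an adjusted p under 0.05 and a dashed line at the median of all genes tested. In leaves 13 squares are filled, all on the negative side and with AGO9 farthest out at -5.03, and in dcl234 buds only that of DCL3 is filled.

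The genes most like CLSY3 and CLSY1 over the 6 libraries were sought by the Pearson r of log2(TPM + 1). With CLSY3 these were AT2G08685, CES, AT1G30795, AT2G38905 and AT4G29980 (r from 0.9995 to 0.9998), all at 0 in both leaf libraries. CES, a bHLH transcription factor, had 15.9 and 24.0 TPM in dcl234 buds, 0 and 0 TPM in leaves, and 8.33 and 19.3 TPM in Col-0 buds. With CLSY1 they were AT2G32600, AT1G62480, DMC1, HB22 and FAD3 (r from 0.9979 to 0.9983). DMC1, a meiotic recombinase, had 6.34 and 6.90 TPM in dcl234 buds, 0.31 and 0 TPM in leaves, and 1.94 and 2.74 TPM in Col-0 buds. These r values rest on 6 libraries in 3 groups that share their scaling, and are a description.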

How the data were processed

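mRNA-Seq libraries were made by the authors with the Smart-seq2 protocol, which does not mark strand, and ERCC spike-ins. Per the study's methods, 50-base read pairs were aligned with RSEM to TAIR10 plus spike-in sequences, and Araport11 transcripts were quantified. The authors deposited TPM for 38640 genes and 92 ERCC RNAs. The small RNA tables were not used here. Differences were computed with limma 3.58.1 (R 4.3.3) on log2(TPM + 1), letting the variance follow the mean level, and 19778 genes averaging 1 TPM or more were kept. All 6 libraries entered 1 fit by group. No batch is given in the labels. Fold changes on this scale understate the change of low genes. Windows of 250 bases, transcript lengths and shared 50-base stretches were read from the RefSeq annotation of TAIR10.1, whose build name differs from the TAIR10 of the files. The window of CLSY1 is not reported here. RefSeq lists CLSY2, CLSY3 and CLSY4 under other symbols. All 10 genes are described, with values for other pathway genes called in a comparison, for NRPD2, RDR2, AGO6 and the SUVH genes, and for the 5 genes with the highest Pearson r with CLSY1 and with CLSY3. Values are also given for NRPE5, NRPE9B, NRPB8B, RDM1, DMS4 and MORC6, which were not called in TPM. These genes, RDR2, AGO6, SUVH2 and SUVH9 were added after their values were seen. The 10 genes and all lists were chosen with earlier results of these data known. The alternatives were a pseudocount of 0.1, no filter, a mean of at least 5 TPM, the 4 libraries of a comparison, a replicate block, quantile normalization, scaling to the ERCC total, centring on the median gene and leaving out each library. Rescaling to nuclear protein-coding genes was added after the data were seen.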

Additional observations from a re-analysis of the deposited data

How the results depend on the processing

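The fall of CLSY3, NRPE1 and DMS3 in leaves was called under 13 of 14 alternatives each, the exception being the ERCC scale (-2.12, -0.96 and -0.74, limma adjusted p = 0.0934, 0.672 and 0.819). Called genes among the 10 in leaves (4) numbered 0 with a mean of at least 5 TPM, where 1 was tested, 0 on the ERCC scale, 10 after rescaling to nuclear protein-coding genes, and 3 to 6 when 1 library was left out. In dcl234 buds the 10 genes held 7 calls on the ERCC scale and 0 under the others. Over all genes, calls in leaves (7310, of which 2378 higher and 4932 lower) numbered 1427 on the ERCC scale (680 and 747), 12177 rescaled to coding genes (2448 and 9729) and 4576 to 7132 with 1 library left out. Centring on the median gene gave 4848 higher and 4187 lower. Calls in dcl234 buds (361, of which 266 higher and 95 lower) numbered 85 with a pseudocount of 0.1, 87 without a filter, 902 with a mean of at least 5 TPM, 1381 with 4 libraries, 958 with a replicate block, 17452 on the ERCC scale and 32 to 1440 with 1 library left out. Their split was 106 and 240 after quantile normalization, 85 and 217 when centred, and 51 and 216 rescaled to coding genes. Leaves and Col-0 buds came from the same plants, but the study does not say whether equal replicate numbers mark the same plants. Replicate differences correlated over genes at 0.0374, 0.0342 and -0.0309 between groups, which cannot settle this. The replicate block changed no call among the 10. In dcl234 buds NRPE1 turned negative after quantile normalization (-0.43), centring (-0.48), coding rescaling (-0.49), without dcl234 bud replicate 2 (-0.01) and without Col-0 bud replicate 1 (-0.17), in a range of -0.17 to 0.17 with 1 library left out. In the same order of scalings CLSY3 gave -0.12, -0.14 and -0.18 and SHH1 -0.0059, -0.025 and -0.076, while centring and coding rescaling gave -0.038 and -0.052 for DRM2 and -0.055 and -0.0496 for DRD1. In leaves quantile normalization gave 0.074 for CLSY1 and 0.046 for DRM2, and the ERCC scale 0.018 for DRM2. With a pseudocount of 0.1 the CLSY3 share in leaves was 11.2%, and the ratio of NRPD1 to NRPE1 in dcl234 buds 0.444. Why these values moved was not tested. The groups hold 2 libraries each, and read totals were not used here.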
